A study of Mus musculus with 27 samples.

Results

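The microRNAs (miRNAs) of the imprinted cluster on mouse chromosome 12, and Meg3, the long non-coding RNA of the same locus, were followed in left ventricles under pressure load. The members were Meg3 in the mRNA table and every entry, of either arm, of 47 listed miRNA names in the miRNA table. Entries were found for 45 of the 47 names; miR-412 and miR-1197 were not analysed here. In all there were 52 miRNA entries of 421 and 1 gene of 8987, which makes 53 members of 9408 measured features.

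The hearts came from adult FVB mice, and the left ventricle was taken 7 days after the operation. In caPI3Kalpha TAC, mice with the caPI3Kalpha genotype (PI3K alpha, a lipid kinase of growth signalling, in an always-active form) underwent transverse aortic constriction (TAC), a banding that makes the ventricle pump against pressure. WT TAC mice were wild type with the same constriction, caPI3Kalpha sham mice carried the caPI3Kalpha genotype and had a sham operation, and WT sham mice were wild type with a sham operation. The sample tags call the genotype PI3Kalpha mutant. The labels give neither the promoter that drives caPI3Kalpha nor the cells that carry it. Small RNA was sequenced from 4 caPI3Kalpha TAC, 5 WT TAC, 3 caPI3Kalpha sham and 4 WT sham hearts. Of the same hearts, 2 caPI3Kalpha TAC, 3 WT TAC, 2 caPI3Kalpha sham and 4 WT sham also gave poly-A mRNA. Each library is 1 numbered heart. Counted reads per miRNA library ran from 3114229 to 7676588, and the depth behind the mRNA values, in RPKM (reads scaled to gene length and library size), is unknown.

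Differences among the libraries touch the results. The miRNA column names come in 2 forms, 8 with a space and 8 without, each with hearts of all 4 groups, and 133 of the 262 miRNAs tested (50.8%) differed between the forms. The mRNA libraries fall into 2 sets by their first principal component; the first set holds all 4 caPI3Kalpha libraries with WT TAC 1 and WT sham 6, and the second holds the other 5 WT libraries. The 2 divisions nearly coincide by heart. Every heart of the first mRNA set has a miRNA column name without a space. In the second set WT sham 13, WT sham 15, WT TAC 17 and WT TAC 19 have names with a space, and WT sham 7 has one without. The labels name neither division. Cardiomyocyte markers summed to 11311 RPKM or more in every mRNA library, in accord with the labelled tissue.

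The locus is imprinted: from the maternal chromosome it expresses non-coding RNAs, among them Meg3, Rian and Mirg, and from the paternal chromosome protein-coding genes, among them Dlk1, Rtl1 and Dio3. The miRNAs are cut from the maternal non-coding transcripts in 2 main blocks, one antisense to Rtl1, which includes miR-431, miR-433, miR-127, miR-434 and miR-136, and one further downstream in Mirg, from miR-379 to miR-410. A miRNA recognises its targets mainly by its seed, bases 2 to 8 from the 5′ end, and lowers their translation or stability. The locus is best known from embryonic and placental growth and from neurons.

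The mature sequences of the members on which the results turn are shown 5′ to 3′, with the seed in capitals. They are RefSeq sequences with positions on the plus strand of GRCm38.p6. They are the 6 most abundant members, miR-136, which lies beside miR-434, miR-300, a near copy of miR-381, and both arms of 2 hairpins whose balance of arms differed between the forms of column name.

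miR-127 (chr12:109592888-109592909): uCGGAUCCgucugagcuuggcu
miR-434-5p (chr12:109594528-109594549): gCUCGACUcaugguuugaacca
miR-434-3p (chr12:109594565-109594586): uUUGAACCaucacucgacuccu
miR-136 (chr12:109595331-109595352): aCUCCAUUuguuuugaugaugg
miR-411 (chr12:109710190-109710210): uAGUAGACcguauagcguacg
miR-300 (chr12:109724363-109724384): uAUGCAAGggcaagcucucuuc
miR-381 (chr12:109726870-109726891): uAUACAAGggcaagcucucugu
miR-541 (chr12:109742422-109742446): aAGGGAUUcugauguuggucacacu
miR-409-5p (chr12:109743172-109743194): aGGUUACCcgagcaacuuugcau
miR-409-3p (chr12:109743204-109743225): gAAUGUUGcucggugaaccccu
miR-410 (chr12:109743764-109743784): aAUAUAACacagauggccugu

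Of the 52 entries, 42 were matched to a RefSeq mature sequence, and these held 42 different seeds, so no pair of matched members shares a seed. Entries written without an arm were assigned the arm under which the current name continues; the table itself gives no sequence. The mature miR-300 and miR-381 differ at 3 of 22 bases, 1 of them in the seed, and miR-376a and miR-376b at 3 of 21 bases, 1 of them in the seed. How reads that fit both members of such a pair were counted is not given in the sources used here, so their split is uncertain. All 52 entries lie on 45 hairpins of chromosome 12. By position, 17 entries lie in an upstream part, from miR-770 to miR-370, and 35 from miR-379 to miR-410. The upstream part is wider than the block antisense to Rtl1 and includes, among others, miR-770 and miR-370.

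The cluster made up a small share of the counted miRNA reads, and miR-127 made up most of the cluster. All members together took 0.264%, 0.367%, 0.258% and 0.220% of counted reads in caPI3Kalpha TAC hearts 8, 9, 11 and 211. They took 0.466%, 0.344%, 0.393%, 0.436% and 0.426% in WT TAC hearts 1, 2, 17, 19 and 20. The share was 0.166%, 0.156% and 0.137% in caPI3Kalpha sham hearts 5, 8 and 14, and 0.159%, 0.154%, 0.164% and 0.154% in WT sham hearts 6, 7, 13 and 15. Every TAC heart of either genotype lay above every sham heart, and the 2 TAC groups overlapped through caPI3Kalpha TAC 9 and WT TAC 2. Without miR-127 the share averaged 0.0724% ± 0.0116 in caPI3Kalpha TAC (SD, n = 4), 0.131% ± 0.0156 in WT TAC (n = 5), 0.0522% ± 0.00518 in caPI3Kalpha sham (n = 3) and 0.0502% ± 0.00291 in WT sham (n = 4), and the TAC groups then did not overlap. The part of the cluster that was miR-127 ran from 72.0% to 76.4% in caPI3Kalpha TAC hearts and from 65.4% to 72.5% in WT TAC hearts. Among sham hearts it was 65.9% to 66.1% with the caPI3Kalpha genotype and 66.9% to 69.8% in WT. These shares are a description and carry no test.

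**Figure D1:**
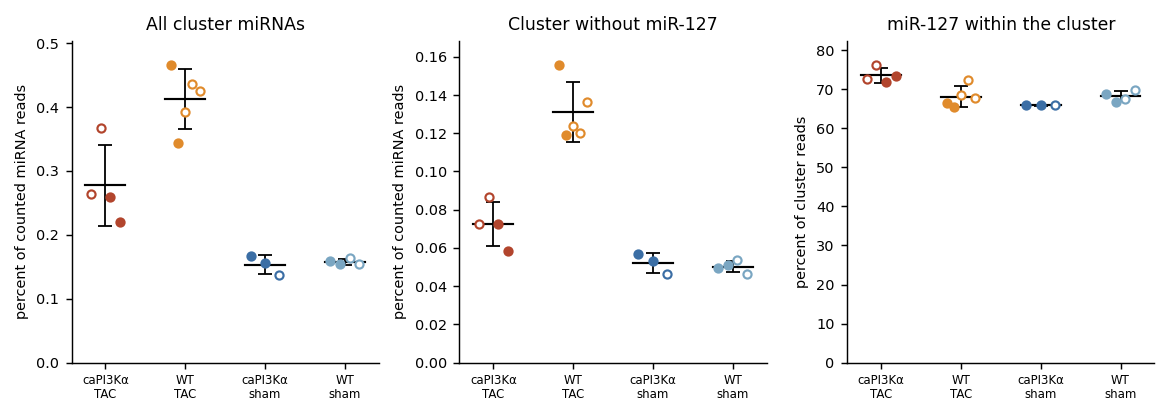
Share of the cluster in each heart, as percent of counted miRNA reads for all members (left) and without miR-127 (middle), and miR-127 as percent of the cluster's reads (right). Points are hearts (open, column name with a space; filled, without), lines and bars are the mean and SD; the WT TAC hearts sit at 0.344% or more in the left panel and every sham heart at 0.166% or less.

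Of the 52 entries 26 were tested and 26 were too low to test. The test (edgeR's quasi-likelihood test, with Benjamini-Hochberg adjustment over 262 miRNAs and a threshold of 0.05) took miRNAs with about 2.03 RPM (reads per 1000000 counted, here 10 reads in the median library) in at least 3 libraries. Of the 26 tested members, 19 reached that level in 3 or more of the 7 sham libraries, while the other 7 (miR-154, miR-337-3p, miR-380-3p, miR-382, miR-433, miR-540-3p and miR-668) passed only with TAC libraries. Counts over the tested members therefore describe them and are not evidence for the cluster as a whole. Levels below are CPM (counts per 1000000 of the TMM-scaled library total), changes are log2 fold changes with their standard error (SE), and means carry the SD between hearts. Since these are whole ventricles, a change in the number of cells that make a miRNA and a change in its amount per cell cannot be told apart.

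The first question is what pressure load does to the cluster in WT hearts. Of the 26 tested members 15 rose, 0 fell and 11 did not pass, against 13.0% of all 262 miRNAs that rose and 20.2% that changed in either direction. The log2 change lay above 0 for 25 of 26, with a median of 1.12 for the members and -0.04 for all miRNAs tested. For 16 of 26 members every WT TAC heart lay above every WT sham heart, against 13.0% of all miRNAs. Of the 15, 13 had reached the level for testing in sham libraries, and miR-433 and miR-668 only with TAC libraries. Scaled to library totals without TMM, the median of all miRNAs moved to 0.27 and that of the members to 1.43.

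miR-127, whose target Rtl1 is the paternally expressed gene on the opposite strand, had 2675.5, 2074, 2301, 2875 and 2442 CPM in WT TAC hearts 1, 2, 17, 19 and 20, against 1213, 1084, 1166 and 1238 CPM in WT sham hearts 6, 7, 13 and 15. Every WT TAC heart lay above every WT sham heart. The log2 change was 1.07 (SE 0.15, adjusted p = 0.000117). miR-410, the last miRNA of the downstream block, had 104.0, 80.9, 74.8, 69.7 and 79.3 CPM in WT TAC, against 34.1, 28.5, 32.1 and 43.8 CPM in WT sham, without overlap. It rose, with a log2 change of 1.24 (SE 0.16) and an adjusted p of 0.000102. miR-541, a few hairpins upstream of miR-410, had 231, 192, 244, 279 and 285 CPM in WT TAC, against 85.1, 70.3, 120.4 and 92.9 CPM in WT sham. Its groups did not overlap, and it rose by 1.42 (SE 0.21, adjusted p = 0.000258). miR-411, near the start of the downstream block, averaged 321 ± 33.2 CPM in WT TAC (n = 5) and 140 ± 17.1 CPM in WT sham (n = 4), a log2 change of 1.2 (SE 0.19, adjusted p = 0.000306).

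**Figure D2:**
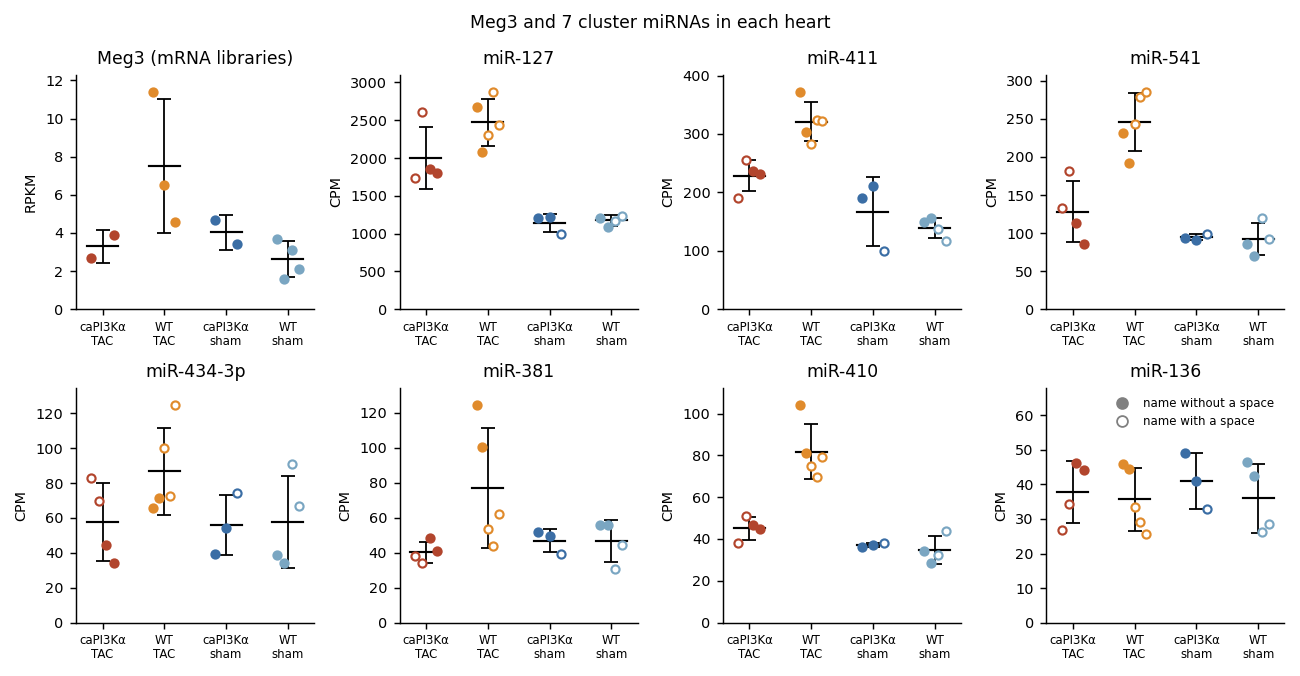
Levels of Meg3 in RPKM and of 7 cluster miRNAs in CPM in each heart, on axes that start at 0. Points are hearts, lines and bars are the mean and SD; for the miRNAs open points mark column names with a space and filled points those without. miR-127, miR-411, miR-541 and miR-410 stand higher in all 5 WT TAC hearts than in any WT sham heart, while miR-136 averages 35.7 CPM in WT TAC and 36.0 CPM in WT sham.

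The other members that rose were less abundant. miR-134, known in neurons for limiting dendritic spine growth, averaged 12.2 ± 2.48 CPM in WT TAC and 4.21 ± 1.03 CPM in WT sham, and its log2 change was 1.52 (SE 0.28). miR-431, from the block antisense to Rtl1, averaged 12.2 ± 1.17 CPM in WT TAC and 4.48 ± 1.47 CPM in WT sham, a change of 1.47 (SE 0.23, adjusted p = 0.000306). miR-341 (1.34), miR-434-5p (1.19), miR-299 (1.13), miR-409-3p (1.11), miR-379 (0.98) and miR-300 (0.96) also rose, with adjusted p from 0.000306 to 0.00743. These 12 members kept their call without any 1 of the 16 libraries, and the call of the other 3 depended on single libraries. miR-433 (1.15) missed the threshold without WT TAC 17, 19 or 20 or WT sham 6 or 7, with adjusted p up to 0.108. miR-673-5p (0.97, adjusted p = 0.0461) missed it in 14 of 16 such fits, all but those without caPI3Kalpha sham 5 or 14, with adjusted p up to 0.136. miR-668 is a low-count case: 47 reads in the 5 WT TAC libraries against 2 in the 4 WT sham libraries, both of them in WT sham 13, a ratio per counted read of 18.1 (95% counting interval 4.73 to 154). It was tested in 15 of the 16 such fits and missed the threshold without WT sham 6, 7 or 15.

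miR-136, which lies beside miR-434, did not pass. It had 45.9, 44.4, 33.4, 29.3 and 25.6 CPM in WT TAC, against 46.6, 42.5, 26.4 and 28.6 CPM in WT sham, fully overlapping. The log2 change was -0.02 (SE 0.23, adjusted p = 0.969), and the sign turned on library totals without TMM, at 0.29 (adjusted p = 0.419). A ratio within a library needs no scaling; this one was formed after these values were seen, so it restates them and carries no test. Per 1000 reads of miR-127 there were 10.2 to 21.4 reads of miR-136 in WT TAC hearts and 22.6 to 39.2 in WT sham hearts, without overlap. The log2 difference was -1.07. In caPI3Kalpha hearts the ratio was 13.2 to 24.9 in TAC and 33.0 to 41.0 in sham, a log2 difference of -0.93. Within names with a space the ratio was 10.2 to 14.5 in WT TAC and 22.6 to 23.1 in WT sham, and within names without a space 17.2 to 21.4 in WT TAC and 38.4 to 39.2 in WT sham.

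The remaining 10 members did not pass the test in WT hearts. Among them are 2 of the 6 most abundant, miR-434-3p, with 86.8 ± 25 CPM in WT TAC and 57.7 ± 26.5 CPM in WT sham, and miR-381, with 76.8 ± 34.1 CPM in WT TAC and 46.6 ± 12.1 CPM in WT sham. Their log2 changes were 0.59 (adjusted p = 0.234) and 0.72 (adjusted p = 0.0773). The other 8, miR-154, both arms of miR-337, miR-369-3p, miR-380-3p, miR-382, miR-409-5p and miR-540-3p, had log2 changes between 0.65 and 2.08, and adjusted p between 0.0572 and 0.390. For miR-382 there were 44 reads in WT TAC and 6 in WT sham.

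Several of these differed between the 2 forms of column name. Of the 26 tested members 10 did, 4 of them higher and 6 lower in names with a space, beside 50.8% of all miRNAs. The sharpest case was miR-434, where the 2 arms moved in opposite directions: in names with a space the 5p arm differed by -0.71 in log2 and the 3p arm by 0.81. In libraries with a space there were 0.230 to 0.651 reads of miR-434-5p per read of miR-434-3p, and in those without a space 0.665 to 1.49. The ranges do not touch although each form holds all 4 groups. For miR-409 the 5p to 3p ratio was 0.455 to 1.49 with a space and 1.40 to 3.46 without, and within each of the 4 groups the forms did not overlap. With a term for the form in the model 22 members rose in WT TAC and 0 fell. miR-409-5p (1.38, adjusted p = 0.000483), miR-381 (0.74, adjusted p = 0.00335) and miR-434-3p (0.59, adjusted p = 0.0154) then passed, and miR-136 did not (0.05, adjusted p = 0.744). What the 2 forms stand for is not given in the sources used here.

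**Figure D3:**
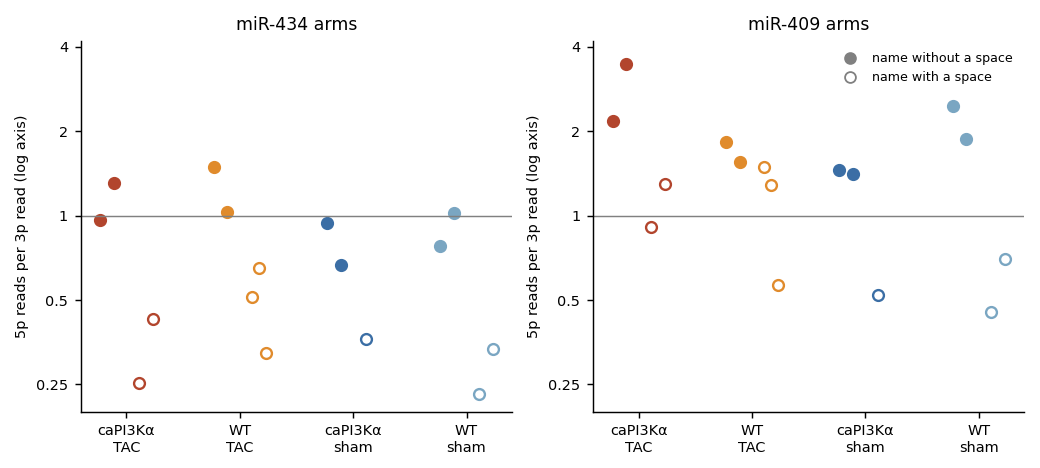
Reads of the 5p arm per read of the 3p arm for the miR-434 (left) and miR-409 (right) hairpins in each heart, on a log axis, by group and by form of the column name (filled, without a space; open, with a space). For miR-434 every open point lies at 0.651 or lower and every filled point at 0.665 or higher.

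Members of both parts of the locus rose in WT hearts. Of 11 tested members of the upstream part, from miR-770 to miR-370, 6 rose, with a median log2 change of 1.07. Of 15 tested members from miR-379 on 9 rose, with a median of 1.13. No test of the difference between the parts was run.

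The second question is whether the genotype alone changed the cluster. In caPI3Kalpha sham against WT sham, 0 of 26 members passed in either direction, as did 0% of all miRNAs in edgeR, and DESeq2 also called 0. At an unadjusted p under 0.05 there were 0 members and 4 miRNAs in all. The median change of the members was -0.01, with 13 above 0 and 13 below. miR-127 had 1201, 1224 and 1000.4 CPM in caPI3Kalpha sham hearts 5, 8 and 14, within or just below the WT sham values, and miR-410 averaged 37.2 ± 1.03 CPM in caPI3Kalpha sham (n = 3) and 34.6 ± 6.54 CPM in WT sham (n = 4).

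In caPI3Kalpha hearts the constriction raised few members past the threshold. Of 26, 3 rose (miR-127, miR-673-5p and miR-382) and 0 fell, beside 4.58% of all miRNAs that rose and 10.7% that changed in either direction. Of the 3, miR-127 and miR-673-5p had reached the level for testing in sham libraries. miR-382 reached it only with TAC libraries, and its highest caPI3Kalpha TAC heart had 1.66 CPM. The median was 0.28 for the members and -0.09 for all miRNAs, and 20 of 26 lay above 0. In 4 of 26 every caPI3Kalpha TAC heart lay above every caPI3Kalpha sham heart, beside 7.25% of all miRNAs.

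miR-127 had 1738, 2615, 1859 and 1807 CPM in caPI3Kalpha TAC hearts 8, 9, 11 and 211, against 1201, 1224 and 1000.4 CPM in caPI3Kalpha sham. The groups did not overlap, and it rose by 0.81 (SE 0.17, adjusted p = 0.00876). In a fit of these 2 groups alone the change was 0.83 and the adjusted p 0.103. miR-673-5p had 6.27, 8.77, 8.56 and 6.56 CPM in caPI3Kalpha TAC, against 4.74, 2.64 and 0.49 CPM in caPI3Kalpha sham, a change of 1.47 (SE 0.39, adjusted p = 0.0251). Its call was lost in 9 of 16 fits without 1 library (without WT sham 6, WT TAC 2, 17, 19 or 20, caPI3Kalpha sham 8, or caPI3Kalpha TAC 8, 9 or 11). miR-382 had 14, 6, 7 and 0 reads in caPI3Kalpha TAC and 0 in each caPI3Kalpha sham library. Against 3 counts over the sham group this is at least 6.52-fold higher per counted read. The call of miR-382 (adjusted p = 0.0449) was lost in 5 of the 7 fits without 1 library that tested it. Those were the fits without WT sham 13, any caPI3Kalpha sham heart or caPI3Kalpha TAC 9. In the rest of the 16 fits miR-382 was too low to test.

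miR-410 had 38.0, 50.8, 46.5 and 44.8 CPM in caPI3Kalpha TAC, against 36.1, 37.2 and 38.1 CPM in caPI3Kalpha sham. The groups met at their edge, and the change of 0.28 (SE 0.18) did not pass (adjusted p = 0.338). miR-541 averaged 128 ± 40.3 CPM in caPI3Kalpha TAC (n = 4) and 94.4 ± 3.86 CPM in caPI3Kalpha sham (n = 3), with a change of 0.44 (adjusted p = 0.245). miR-411 averaged 229 ± 27.0 CPM in caPI3Kalpha TAC and 167 ± 58.8 CPM in caPI3Kalpha sham, with a change of 0.45 (adjusted p = 0.194). The count of 3 dropped to 1 without any one of WT sham 6, WT TAC 2, 17, 19 or 20, caPI3Kalpha sham 8, or caPI3Kalpha TAC 8, 9 or 11.

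**Figure D4:**
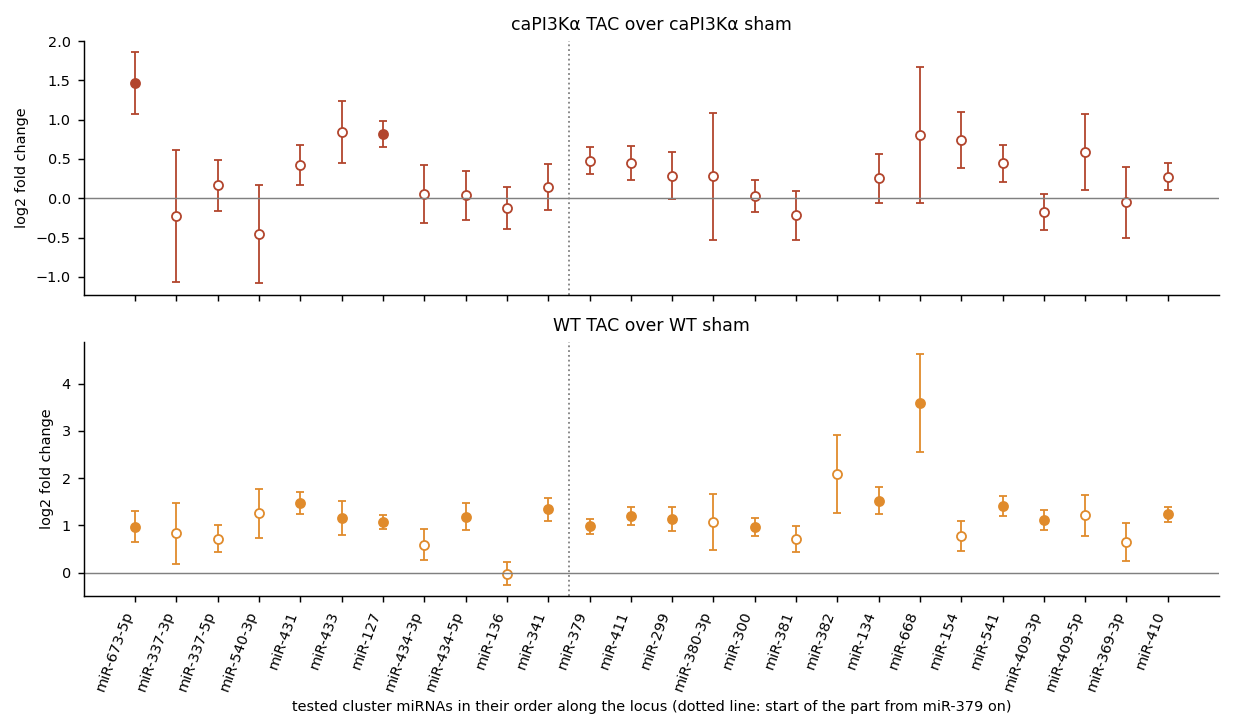
Log2 fold change with its SE of the tested members, in their order along the locus, for caPI3Kalpha TAC over caPI3Kalpha sham (top) and WT TAC over WT sham (bottom). Filled points passed an adjusted p of 0.05; miR-382 is left out of the top panel because no read was counted in caPI3Kalpha sham. In the bottom panel all points but miR-136, at -0.02, lie above 0.

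Under the constriction part of the cluster was lower in caPI3Kalpha hearts than in WT hearts, while miR-127, which makes up most of its reads, did not pass. In caPI3Kalpha TAC against WT TAC 10 of 26 tested members were lower, 0 were higher and 16 did not pass, against 8.78% of all miRNAs that were lower and 13.0% that changed either way. Of the 10, miR-540-3p reached the level for testing only with TAC libraries, and the others had reached it in sham. Its mean was 3.88 CPM in WT TAC, where it is highest, and 1.15 CPM in caPI3Kalpha TAC. The members' median was -0.75, with 25 of 26 below 0, and that of all miRNAs was -0.04. In 11 of 26 every caPI3Kalpha TAC heart lay below every WT TAC heart, against 9.92% of all miRNAs. This comparison and that of WT TAC with WT sham share the WT TAC hearts, so their overlap is no separate result; 8 members passed in both.

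miR-410 differed by -0.86 in log2 (SE 0.16) with an adjusted p of 0.00393, and its values, 38.0 to 50.8 CPM in caPI3Kalpha TAC and 69.7 to 104.0 CPM in WT TAC, did not overlap. miR-541 had 133, 181, 114 and 85.5 CPM in caPI3Kalpha TAC, all below the lowest WT TAC heart at 192 CPM, a difference of -0.94 (SE 0.21, adjusted p = 0.00959). miR-341 was 6.58 ± 0.303 CPM in caPI3Kalpha TAC (n = 4) and 16.4 ± 2.29 CPM in WT TAC (n = 5), a difference of -1.31 (SE 0.25, adjusted p = 0.00437). miR-300 (-0.95) and miR-409-3p (-0.99) were lower without overlap as well. These 5 kept their call without any 1 library. The other 5, miR-134, miR-299, miR-381, miR-431 and miR-540-3p, lost it in 2 to 10 of 16 such fits. The count of 10 was 5 without caPI3Kalpha TAC 8 or 11 and 6 without caPI3Kalpha TAC 211, WT TAC 17 or WT TAC 20, and with a term for the form of the column name it was 17.

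miR-127 differed less between the TAC groups. It averaged 2005 ± 410 CPM in caPI3Kalpha TAC and 2473 ± 313 CPM in WT TAC, with overlap, a difference of -0.30 (SE 0.14, adjusted p = 0.191; on library totals without TMM -0.46, adjusted p = 0.0477). miR-411 was 191 to 255 CPM in caPI3Kalpha TAC and 283 to 372 CPM in WT TAC, and although these did not overlap the difference of -0.49 did not pass (adjusted p = 0.0886).

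The test of whether the response to TAC differed between genotypes gave 0 calls among the members in edgeR and 0.763% among all miRNAs. At an unadjusted p under 0.05 there were 12 members of 26 and 39 miRNAs of 262, and 24 of 26 members lay below 0, with a median of -0.81. The count was 2 without WT sham 15 and 1 without caPI3Kalpha sham 14. The nearest were miR-410, at -0.96 (SE 0.23), and miR-409-3p, at -1.29 (SE 0.31), each with an adjusted p of 0.0524. Both passed in DESeq2 (adjusted p 0.0131 and 0.0198). With the term for the form of the column name 6 members passed, all lower: miR-300, miR-409-3p, miR-410, miR-431, miR-434-5p and miR-541. For miR-127 the interaction was -0.26 (SE 0.22, adjusted p = 0.736).

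**Figure D5:**
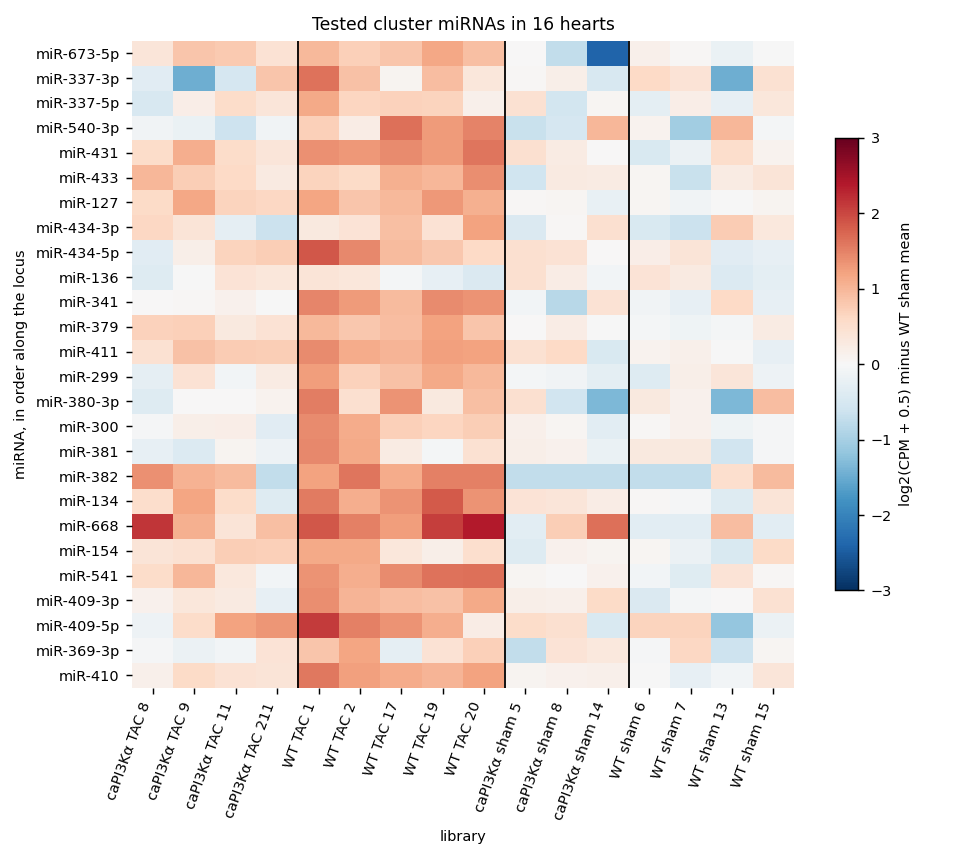
Level of each tested member in each of the 16 hearts as log2(CPM + 0.5) minus the mean of the WT sham hearts; rows follow the order along the locus and black lines part the groups caPI3Kalpha TAC, WT TAC, caPI3Kalpha sham and WT sham. The block of WT TAC columns is the reddest and the 2 sham blocks stay near 0, except for low-count members such as miR-382 and miR-668.

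The 26 members too low to test had between 0 and 129 reads over the 16 libraries. Most abundant among them were miR-369-5p (129 reads), miR-329 and miR-376c (108 reads each), miR-540-5p (106 reads), miR-376b (94 reads) and miR-495 (78 reads). Next came miR-496 (65 reads), miR-1193-3p (56 reads), miR-666-5p (53 reads), miR-673-3p (51 reads), miR-543 (43 reads), miR-376a (41 reads), miR-377 (38 reads) and miR-667 (37 reads). miR-485 and miR-494 had 32 reads each, miR-666-3p 31, miR-370 26, miR-487b 14, miR-323-3p 13, miR-758 10 and miR-665 4 reads. miR-493, miR-539-3p and miR-544-3p had 2 reads each, and miR-770-5p, which lies within Meg3, had 0. Summed over all 26, there were 12.1 RPM in caPI3Kalpha TAC, 24.7 in WT TAC, 8.55 in caPI3Kalpha sham and 8.34 in WT sham. The libraries ran from 7.43 to 17.1 in the caPI3Kalpha TAC group, from 16.5 to 32.7 in the WT TAC group, and in sham from 6.39 to 10.3 with caPI3Kalpha and from 7.09 to 10.1 in WT, so that the WT TAC libraries lay above every sham library. Among single entries, miR-376a had 30 reads in WT TAC and 0 in WT sham, but 5 in caPI3Kalpha TAC and 6 in caPI3Kalpha sham. The floor of 3 counts is 0.127 RPM in WT TAC and 0.165 in WT sham. miR-495 had 48 reads in WT TAC and 6 in WT sham. miR-667 had 28 and 2 reads in the same groups, and miR-494 had 25 and 2. Some entries differed less, such as miR-329, with 39 and 22 reads, and miR-758, with 2 and 4, went the other way. The table holds no value of 1 in any cell, so a single read may be listed as 0, and since PCR-amplified reads without molecular identifiers are not independent molecules, all intervals and floors cover counting error only.

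Meg3, the maternal non-coding RNA at the head of the miRNA-bearing transcripts, had 11.4, 6.5 and 4.6 RPKM in WT TAC hearts 1, 17 and 19, against 3.7, 1.6, 3.1 and 2.1 RPKM in WT sham hearts 6, 7, 13 and 15. The groups did not overlap, with WT TAC 1 well above the others. On the log2(RPKM + 0.5) scale it rose by 1.32 (SE 0.31, limma, adjusted p = 0.0150), while 13.6% of 8987 genes rose and 16.5% changed either way. It kept its call without any 1 of the 11 libraries, at 0.99 without WT TAC 1. The call was lost after quantile normalization (1.05, adjusted p = 0.0507), and within the first library set, where each WT group is 1 heart and the p rests on the spread of the caPI3Kalpha groups, it was 1.5 (adjusted p = 0.0939), against 1.15 (adjusted p = 0.0128) within the second. Its mean level was above that of 29.7% of the listed genes.

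In caPI3Kalpha hearts Meg3 had 2.7 and 3.9 RPKM in TAC, against 4.7 and 3.4 RPKM in sham, which overlap. The change was -0.26 (SE 0.40, adjusted p = 1), in a comparison where limma called 0% of genes and 454 genes had an unadjusted p under 0.05. In caPI3Kalpha sham against WT sham the difference was 0.58 (adjusted p = 0.341; 0.0111% of genes changed), and its sign turned with a term for the library set (-0.03, adjusted p = 0.999). Both caPI3Kalpha TAC hearts lay below all 3 WT TAC hearts, a difference of -1.0 (SE 0.36, adjusted p = 0.0966; 6.52% of genes changed). The interaction was -1.58 (SE 0.50, adjusted p = 0.279; 0.312% of genes changed). With a term for the library set the last 2 were -1.54 (adjusted p = 0.0102) and -1.51 (adjusted p = 0.0253). All 4 caPI3Kalpha mRNA libraries are in the first set. The set term therefore rests on the WT hearts, of which only WT TAC 1 and WT sham 6 are in that set. WT TAC 1 has the highest Meg3 value. Within the first set the same 2 differences were -1.67 and -1.77, with 1 heart in each WT group.

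In the 11 hearts with both kinds of library, Meg3 and the miRNAs were compared on the log2 scale. Pearson's r was 0.70 for miR-127 (permutation p = 0.0139) and 0.81 for miR-410 (p = 0.00208, adjusted over the 2 relations 0.00416). Spearman's rho was 0.56 (permutation p = 0.0768) and 0.64 (p = 0.0406, adjusted 0.0768). Without WT TAC 1 and WT sham 7, the 2 hearts farthest from the median of Meg3, r was 0.50 and 0.52 (exact permutation p = 0.174 and 0.159) and rho 0.25 and 0.33. The relation was thus not detectable without those hearts, whose removal also narrows the range of Meg3. The permutations do not account for the 4 groups, of which WT TAC has the highest mean of both measures. Within the 6 hearts of the first set r was 0.62 and 0.84 (exact permutation p = 0.267 and 0.269), while rho was 0.029 and 0.143 (exact permutation p = 1 and 0.803). In caPI3Kalpha TAC hearts 11 and 211, with Meg3 at 2.7 and 3.9 RPKM, miR-127 stood at 1859 and 1807 CPM. In caPI3Kalpha sham hearts 5 and 8, with Meg3 at 4.7 and 3.4 RPKM, miR-127 stood at 1201 and 1224 CPM.

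Of the other genes of the locus (Dlk1, Rtl1, Rian, Mirg and Dio3) none was analysed here. Of 11 measured neighbours on the same chromosome region 1 rose in WT TAC and 1 fell, beside 13.6% of all genes that rose and 2.85% that fell. Traf3, an adaptor of immune receptor signalling, averaged 6.40 ± 0.346 RPKM in WT TAC (n = 3) and 3.58 ± 0.25 RPKM in WT sham (n = 4), a log2 change of 0.76 (adjusted p = 0.00187). Slc25a29, a mitochondrial carrier of basic amino acids, fell by 0.67 (adjusted p = 0.0493). The median of the 11 was 0.24, and that of all genes 0.17.

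Among 16 measured genes imprinted elsewhere in the genome 2 rose and 2 fell in WT TAC, beside 13.6% of all genes that rose and 2.85% that fell. Mest averaged 8.43 ± 0.961 RPKM in WT TAC and 3.58 ± 1.10 RPKM in WT sham, a log2 change of 1.16 (adjusted p = 0.00920), and Ndn, which encodes the growth suppressor necdin, changed by 0.73 (adjusted p = 0.0199). Cdkn1c, which encodes the cell cycle inhibitor p57, fell to 2.80 ± 0.50 RPKM in WT TAC, against 6.28 ± 1.10 RPKM in WT sham, a log2 change of -1.03 (adjusted p = 0.00183), and Snrpn, a splicing protein gene, changed by -0.61 (adjusted p = 0.0290). Their median was 0.16. In caPI3Kalpha TAC against WT TAC 2 of the 16 were lower and 0 higher, Mest (-1.09, adjusted p = 0.0498) and Igf2, a fetal growth factor (-0.88, adjusted p = 0.0435), while 5.78% of all genes were lower.

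Of 17 measured genes that make or use miRNAs 1 rose in WT TAC, beside 13.6% of all genes, and their median was 0.22, beside 0.17 for all genes. It was Eif2c2, which encodes the Argonaute protein that carries miRNAs to their targets (0.40, adjusted p = 0.0461), and Dicer1, which cuts the hairpins, was at 0.37 (adjusted p = 0.0572). In caPI3Kalpha TAC against WT TAC 1 was lower, the helicase gene Ddx17 (-0.65, adjusted p = 0.0350), beside 5.78% of all genes, and the median was -0.33, beside -0.18 for all genes. Of the 3 measured Mef2 genes, which encode factors known to drive the miR-379 to miR-410 block in neurons, 0 passed in either comparison. Mef2a was at 0.16 in WT TAC against WT sham. In caPI3Kalpha TAC against WT TAC Mef2a was at -0.44 (limma, adjusted p = 0.0680), Mef2c at -0.55 (0.115) and Mef2d at 0.31 (0.336).

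Markers of other cells moved with the same groups. For all their counts the shares over all genes are 13.6% higher and 2.85% lower in WT TAC against WT sham, and 5.78% lower in caPI3Kalpha TAC against WT TAC. In WT TAC 6 of 9 fibroblast markers rose, and their summed level was 945 to 1084 RPKM in WT TAC and 318 to 407 RPKM in WT sham. Of 9 macrophage markers 8 rose, with sums of 259 to 315 RPKM in WT TAC and 116 to 137 RPKM in WT sham. All 3 measured markers of dividing cells, of 7 listed, rose, with sums of 10.0 to 17.9 RPKM in WT TAC and 2.2 to 3.2 RPKM in WT sham. In caPI3Kalpha TAC the sums were 424 to 455 RPKM for fibroblasts, 117 to 139 RPKM for macrophages and 2.70 to 2.90 RPKM for dividing cells, and 4 of 9, 5 of 9 and 3 of 3 of these markers were lower than in WT TAC. In caPI3Kalpha sham the same sums were 303 to 345, 108 to 168 and 2.5 to 6.4 RPKM. The fibroblast sums thus did not overlap between the caPI3Kalpha groups, while the other sums did. Between these groups limma called 0 genes. Of 7 cardiomyocyte markers 1 rose and 1 fell in WT TAC, with sums of 11311 to 12361 RPKM in WT TAC and 14560 to 15423 RPKM in WT sham. Endothelial markers (1 of 7 rose) summed to 174 to 186 RPKM in WT TAC and 151 to 159 RPKM in WT sham, and smooth muscle and pericyte markers (2 of 6 rose) to 146 to 200 RPKM in WT TAC and 145 to 182 RPKM in WT sham. In caPI3Kalpha TAC the cardiomyocyte, endothelial, and smooth muscle and pericyte sums were 13286 to 13353, 143 to 156 and 118 to 120 RPKM. Of these markers 2 of 7, 1 of 7 and 1 of 6 were lower than in WT TAC, and 0 were higher. No defining marker of fibroblasts or macrophages was at 0. The part of these cells in the changes of Meg3 and the cluster was not tested.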

How the data were processed

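Small RNA and poly-A mRNA libraries of mouse left ventricle were analysed from the authors' 2 tables. The deposited miRNA values are raw counts of reads per miRBase 16 entry, per the file headers. For mRNA the authors deposited RPKM values of genes that reach 3 RPKM in some library, per the file header. The submitters' processing notes name Bowtie, CASAVA 1.6, Partek 6.5 and the build mm9, without saying what each was used for. How reads were mapped is not given in the sources used here. From the 9251 mRNA lines, 261 blank, 1 error and 2 repeated lines were left out. For WT sham 15 the title, not the source name of the mRNA library, gave the heart number.

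Counts were tested with edgeR 4.0.16 in R 4.3.3 (quasi-likelihood, TMM factors, filterByExpr with a minimum count of 10), in 1 model of 4 groups over 262 miRNAs, with SE taken as the log2 change over the root of F. RPKM values were tested with limma 3.58.1 (trend) on log2(RPKM + 0.5) over 8987 genes; requiring a mean of 1 RPKM left out 0 genes. Tests were two-sided with Benjamini-Hochberg adjustment over each whole table. Correlations used permutation tests in scipy 1.17.1, with 100000 resamples for n of 10 or more. Alternatives were DESeq2 1.42.0, other scalings and filters, other pseudocounts, fits of the compared groups alone, terms for column-name form and mRNA library set, fits within them, and leaving out each library. The scripts were tested on simulated data. The forms and sets come from the column names and the data, not from the labels. Arms of entries without a suffix were assigned from miRBase naming.

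The members and lists were chosen with earlier results of these data known. Named members are Meg3, miR-127 and miR-410, the 6 most abundant members, per comparison the 10 past the threshold with the smallest p and the 3 with the largest change in each direction, members too low to test, pairs of arms, and up to 4 genes per list with the smallest p in WT TAC against WT sham; Igf2, Ddx17, miR-136 and other members that did not pass were named after their values were seen. Each library is 1 numbered heart, and p-values measure the spread between these hearts.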

Additional observations from a re-analysis of the deposited data

Results flagged for a closer look

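Of 88 groups of 4 or 5 values examined, 3 held a heart far from the others, and chance alone gives about 1 in 20. miR-127 stood at 2615 CPM in caPI3Kalpha TAC heart 9, while the other 3 hearts of that group lay between 1738 and 1859 CPM. In the fit without that heart miR-127 still passed in caPI3Kalpha TAC against caPI3Kalpha sham. miR-341 stood at 9.80 CPM in WT sham heart 13, and the other WT sham hearts lay between 5.27 and 5.89 CPM. miR-668 stood at 0.676 CPM in the same WT sham heart 13, from 2 reads, and the other 3 WT sham hearts had 0.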

How the results depend on the processing

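No paired analysis was possible because heart numbers link the miRNA and mRNA libraries of 1 heart, and the groups compared share at most 1 number. The count of 15 members that rose in WT TAC against WT sham stayed between 12 and 16 without any 1 library and within 1.5 times under every alternative run. In caPI3Kalpha TAC against caPI3Kalpha sham the count of 3 was 0 in a fit of those 2 groups alone, 5 with a term for column-name form, 1 within names without a space and 1 to 3 without 1 library. DESeq2 gave no adjusted p for 11 members there, among them miR-382 and miR-673-5p, which edgeR called, and for 9 in the interaction. In caPI3Kalpha TAC against WT TAC the count of 10 was 17 with the form term, 4 within names with a space and 5 to 11 without 1 library. The interaction count of 0 was 2 with DESeq2, 2 on library totals without TMM, 6 with the form term and 0 to 2 without 1 library. Meg3 in WT TAC against WT sham was 1.05 after quantile normalization (adjusted p = 0.0507) and 1.5 within the first mRNA set (adjusted p = 0.0939; 1 heart per WT group, taken to vary like the caPI3Kalpha groups). With a set term Meg3 was -0.025 in caPI3Kalpha sham against WT sham (0.58 without it), -1.54 in caPI3Kalpha TAC against WT TAC and -1.51 in the interaction. Within the first set Meg3 was -1.67 and -1.77 in the last 2, with 1 heart per WT group. Its correlations fell to 0.50 and 0.52 without the 2 outermost hearts, and were 0.62 and 0.84 within the first set, where the adjusted p was 0.269. The interaction of miR-127 turned to 0.13 within names with a space. The causes of these shifts were not tested. Of the values of single named miRNAs under alternatives, 648 kept their direction and side of the threshold, 96 lost the call, 5 gained one and 1, the interaction of miR-127, turned; the sign of miR-136, which is not in this tally, turned without TMM, and that of Meg3 with the set term. Depth limits the 26 untested members and miR-382 and miR-668, and few mRNA hearts limit Meg3.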

Other observations

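Other hairpins of the cluster had fewer reads on the minor arm. miR-337 had 575 reads of the 5p arm and 110 of the 3p arm over all libraries, and miR-673 had 561 of the 5p arm and 51 of the 3p arm. The 3p reads of miR-673 were 17 in caPI3Kalpha TAC, 29 in WT TAC, 0 in caPI3Kalpha sham and 5 in WT sham. For miR-673 the 5p to 3p ratio of summed reads was 6.90 in names with a space and 24.3 in names without. For miR-540 it was 0.455 with a space and 0.836 without. The ratio went the other way for miR-337, at 7.5 with a space and 4.29 without. The same held for miR-369, at 0.795 and 0.573, and for the scarce miR-666, at 3.91 and 0.5. The arms thus did not shift in 1 direction across hairpins.

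The number of members with any read ran from 34 to 41 per caPI3Kalpha TAC library and from 39 to 50 per WT TAC library, and among sham libraries from 32 to 40 with caPI3Kalpha and from 32 to 38 in WT. The libraries were not brought to equal depth for this number, and it carries no test.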
